A study of Mus musculus with 2 samples.

Results

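Keratinocytes of the Keap1 cKO mouse esophagus were divided by how much NRF2 target RNA each cell carried, and cells with a high level (NRF2-high) were set against cells with a low level (NRF2-low) of the same cluster and the same library. The members came from 3 clusters that the authors annotated as epithelial cells, numbers 4, 9 and 13. Each cell was given a score, the unique molecular identifiers (UMIs, which count RNA molecules) of 9 NRF2 targets per 10000 UMIs of the cell. The 9 genes were Gclc, Gclm, Slc7a11, Gsr, Srxn1, Txnrd1, Prdx1, Gsta1 and Gstm1. A Keap1 cKO cell was NRF2-high when its score lay above the 95th percentile of the control cells of its own cluster, and NRF2-low otherwise. This gave 99 NRF2-high and 195 NRF2-low cells among 294 Keap1 cKO cells of the 3 clusters, in a series of 4853 cells. The members were chosen by the measured levels of these 9 genes, so they are given as a description only, and the comparison rests on the other genes.

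The series holds 1 droplet 3′ RNA library per genotype, made from esophagi without their muscle layers. The Keap1 cKO library (2381 cells, median 8193 UMIs per cell) carries K5CreERT2::Keap1 floxB/floxB, in which a ligand-inducible Cre under the keratin 5 promoter can delete the floxed Keap1 copies, in keratinocytes that use that promoter and in the cells that descend from them. The control library (2472 cells, median 11293.5 UMIs) carries Keap1 floxB/floxB without Cre, so both copies are floxed in both genotypes. Both come from a C57BL/6J and BALB/c hybrid strain, and the age, the induction schedule and the number of mice per library are unstated in the labels. NRF2-high and NRF2-low cells share 1 library, so their difference has no replicate check, no test was made, and each 95% interval covers counting error only. The libraries shared 5 cell barcodes, of which 1 was an NRF2-high cell and 3 were control cells of the 3 clusters.

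KEAP1 is the adaptor that brings the transcription factor NRF2, made from Nfe2l2, to a cullin ubiquitin ligase and so to the proteasome. When KEAP1 is lost or its cysteines are modified, NRF2 accumulates, pairs with small MAF proteins and binds antioxidant response elements near genes for glutathione synthesis, detoxification, NADPH supply and iron handling. In mice, loss of KEAP1 in the squamous epithelium of the esophagus and forestomach is known for thick, hyperkeratotic layers that depend on NRF2.

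In cluster 9 the split was clean: 71 of 140 Keap1 cKO cells were NRF2-high (50.7%, 95% interval 42.1 to 59.3%). Their lowest scores were 163 and 240 per 10000, the highest NRF2-low scores were 54.8 and 44.4, and the threshold was 58.5. In cluster 4 the rule called 25 of 93 cells (26.9%, 95% interval 18.2 to 37.1%), but scores ran on across the threshold of 27.0, with 27.0 and 27.6 as the lowest NRF2-high and 26.7 as the highest NRF2-low score. Only 12 of these 25 (12.9% of the 93 cells, 95% interval 6.85 to 21.5%) scored above 100, where no control cell of the cluster lay, and the other 13 scored between 27.0 and 93.9. The share in cluster 4 moved with the processing, to 46.2% when Gsta1 and Gstm1 were left out of the score and to 15.7% when every cell was thinned to the same depth. In cluster 13 only 3 of 61 cells were NRF2-high (4.92%, 95% interval 1.03 to 13.7%), with scores of 286, 430 and 501 against a threshold of 30.5. By construction about 1 control cell in 20 lies above each threshold, here 16 of 313, 6 of 114 and 7 of 134 cells of clusters 4, 9 and 13.

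The 3 genes that mark the NRF2-high cells are Slc7a11, the cystine importer, Gclc, the catalytic subunit of the first enzyme of glutathione synthesis, and Srxn1, which repairs oxidised peroxiredoxins. All belong to the score, so their levels describe the cells chosen and are no check of the label, for which the targets outside the score are given below. In the 12 cells of cluster 4 above 100, Gclc stood at 2723 CPM (counts per 1000000 UMIs) in NRF2-high cells, 50.2 CPM in NRF2-low cells and 43.7 CPM in control cells. Slc7a11 stood there at 1056 CPM in NRF2-high and 13.3 CPM in NRF2-low cells, and no UMI was seen in 313 control cells. In cluster 9 Gclc was at 1722, 12.8 and 24.8 CPM and Srxn1 at 1225, 21.3 and 18.0 CPM in NRF2-high, NRF2-low and control cells. The 13 cells of cluster 4 between the threshold and 100 carried little of these markers: they held no Slc7a11 UMI, 3 Srxn1 UMIs and 101 CPM of Gclc. They are called the intermediate cells here for their score only, since their targets outside the score lay near those of NRF2-low and control cells (below). Values for cluster 4 are therefore given for the 12 cells above 100, a division added after the data were seen. Those of all 25 cells are given for some genes and lists only.

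**Figure D1:**
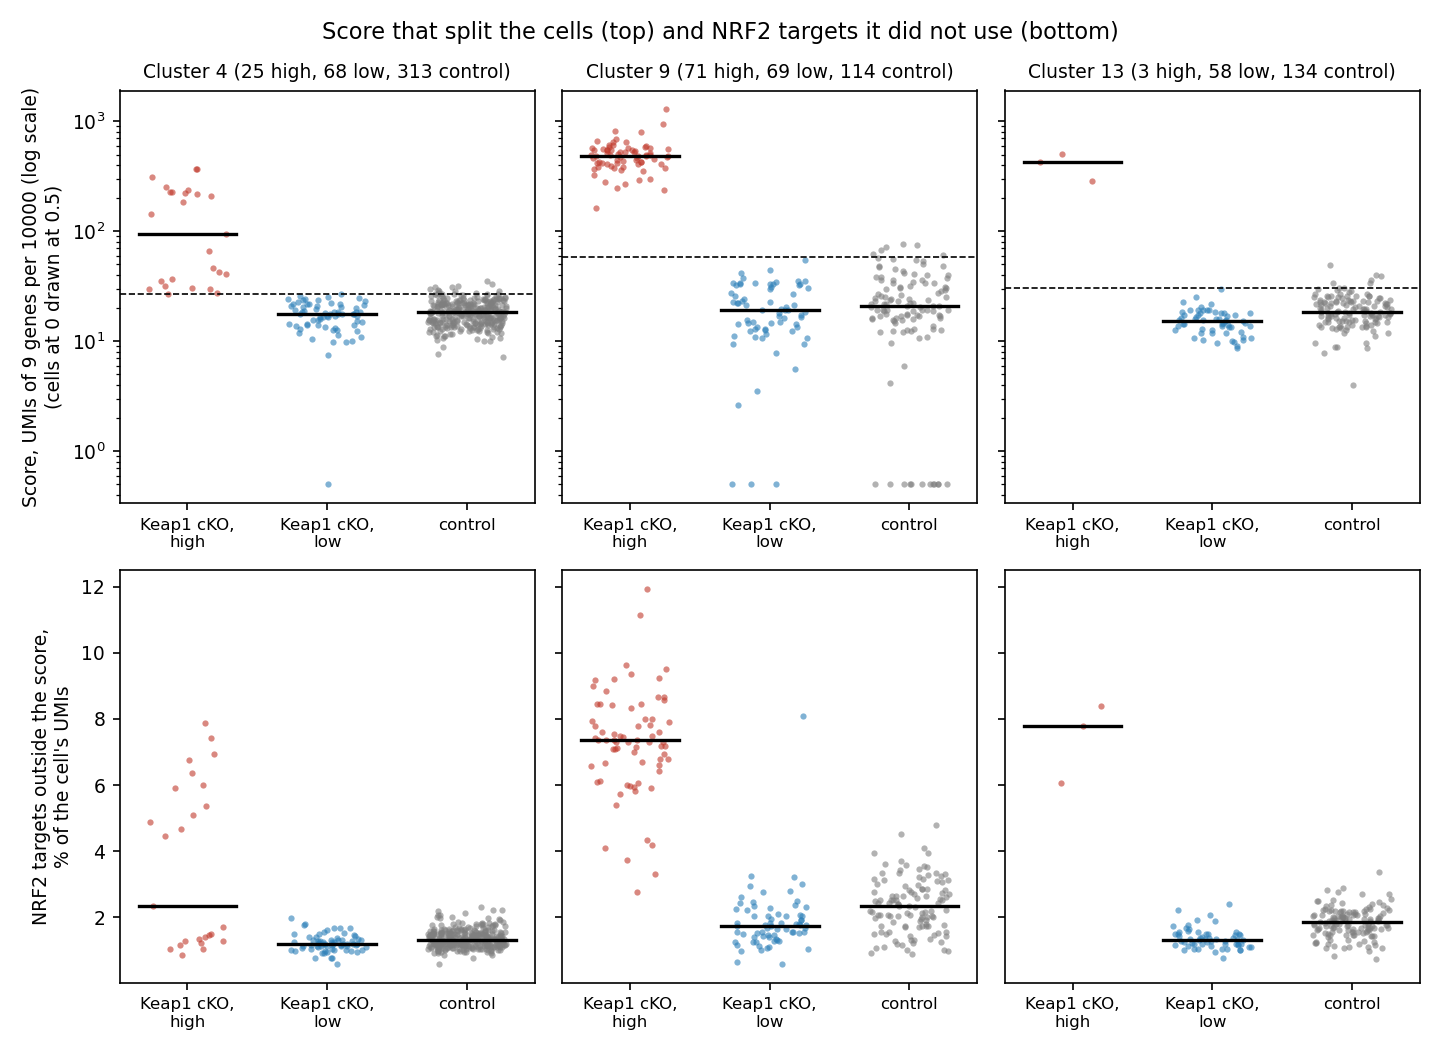
Score of each cell (top, UMIs of the 9 score genes per 10000, log axis) and NRF2 targets outside the score (bottom, % of the cell's UMIs) in NRF2-high, NRF2-low and control cells of clusters 4, 9 and 13; points are cells, solid lines medians, dashed lines the thresholds. In cluster 4 the 12 cells above 100 lie apart from the 13 intermediate cells in both measures, and in cluster 9 the medians of the bottom panel are 7.36% in NRF2-high, 1.72% in NRF2-low and 2.34% in control cells.

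Targets of NRF2 that the score did not use were higher in the cells with high scores. The 7 functional lists hold 94 such genes found in the table, and together they made up 4.47 to 7.87% of the UMIs in the 12 cells of cluster 4 above 100 (median 5.94%). The 13 intermediate cells had a median of 1.29%, the 68 NRF2-low cells 1.19% (highest 1.98%) and the 313 control cells 1.32% (highest 2.31%). In cluster 9 the share ranged from 2.76 to 11.9% in the 71 NRF2-high cells (median 7.36%), from 0.599 to 8.08% in the 69 NRF2-low cells (median 1.72%) and from 0.888 to 4.80% in the 114 control cells (median 2.34%). The 3 NRF2-high cells of cluster 13 had 6.07, 7.79 and 8.40%, above the highest of 58 NRF2-low cells (2.40%, median 1.32%) and of 134 control cells (3.38%, median 1.84%). The NRF2-low median lay below the control median in all 3 clusters.

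Gene by gene, 45 of 71 targets with at least 20 UMIs were at least 2-fold higher in the 12 cells of cluster 4 than in NRF2-low cells and none was 2-fold lower, with a median log2 ratio of 1.81. Of all 8443 genes measured there, 4.87% were at least 2-fold higher and 15.7% at least 2-fold lower, and the median was -0.18. With all 25 cells, 44 of 74 targets were 2-fold higher (median 1.38) beside 3.47% of all 8600 genes measured, 11.3% of which were 2-fold lower. In cluster 9, 40 of 58 targets were 2-fold higher and none lower (median 2.15), beside 13.7% higher and 9.27% lower of 3539 genes and a median over all genes of -0.02. In the 13 intermediate cells of cluster 4 only 5 of 67 targets were 2-fold higher and 7 lower (median 0.12), beside 5.05% higher and 14.1% lower of all genes. The same division of control cells of cluster 4, 16 above the threshold against 297 below it, gave 5 of 77 targets 2-fold higher and 2 lower (median 0.25), beside 4.79% and 10.8% of all genes. Later counts of list members past 2-fold are to be read beside the shares of all genes given here for each comparison.

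Depth differed between the cells compared, in opposite directions in the 2 main clusters. Median UMIs per cell were 14095 in the 12 cells above 100 and 8788 in the intermediate cells, against 30067.5 in NRF2-low and 20487 in control cells of cluster 4. In cluster 9 they were 3499 in NRF2-high, 1886 in NRF2-low and 1441.5 in control cells. Thinning every cell to 1370 UMIs in cluster 4 and scoring it again chose 13 NRF2-high cells of 83, 12 of them among the 25, and left only 25 targets with enough UMIs, with a median of 1.78. In cluster 9, thinning to 560 UMIs chose the same 71 cells and left 28 targets with a median of 2.47. These medians cover mainly abundant targets, and the part of depth in the ratios of the others was not tested. How many of all genes pass 2-fold rested on the settings: in cluster 4 the number higher ran from 62 after thinning to 1236 with no minimum of UMIs, around 298 as reported.

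Enzymes that detoxify quinones, aldehydes and other carbonyls had a median log2 ratio of 2.87 in the 12 cells of cluster 4, the highest of the lists besides the score, with 12 of 15 measured members 2-fold higher, and in cluster 9 it was 14 of 15 (median 2.53). Adh7, an alcohol and retinol dehydrogenase of upper digestive epithelia, was at 5219 CPM (95% interval 4977 to 5469) in the 12 cells, 189 CPM in NRF2-low cells and 774 CPM in control cells of cluster 4, a log2 ratio of high over low of 4.79 (95% interval 4.63 to 4.95). Cell by cell it ran from 1028 to 7815 CPM in the 12 cells, all above the NRF2-low median of 90.3 CPM and the control median of 632 CPM. In cluster 9 Adh7 was at 7139.5, 252 and 1375 CPM in NRF2-high, NRF2-low and control cells. Nqo1, the quinone reductase often read as an NRF2 reporter, stood at 602, 36.5 and 70.3 CPM in cluster 4 and 882, 42.7 and 69.9 CPM in cluster 9, in the same order of cells. For both genes the NRF2-low sums lay below those of control cells of their cluster, and the NRF2-high sums above them. For Nqo1 in cluster 9 the NRF2-low and control sums rest on few UMIs. After thinning to 560 UMIs it was seen in 0% of NRF2-low cells (95% interval up to 5.21%) and 4.81% of control cells (95% interval 1.58 to 10.9%). These intervals overlap.

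Aldh3a1, an aldehyde dehydrogenase of surface epithelia, differed in where its control level lay. In cluster 4 it was at 2114 CPM in the 12 NRF2-high cells, 32.7 CPM in NRF2-low and 154 CPM in control cells. In cluster 9 NRF2-high cells had 2352 CPM (95% interval 2243 to 2465), against 2081 CPM in control cells, while NRF2-low cells had 89.6 CPM. The aldo-keto reductase Akr1c18 had 1266 UMIs in NRF2-high cells of cluster 9, in 50 of 71 cells, and none in 69 NRF2-low or 114 control cells, which made it at least 133-fold higher than in NRF2-low cells at a floor of 3 counts over the group. In cluster 4 the same gene had only 6 of 335308 UMIs in the 12 cells and 12 of 2109992 UMIs in NRF2-low cells. That is a higher rate in the 12 cells, but under the minimum of 20 UMIs for a ratio. The carbonyl reductases Cbr1 and Cbr3 had log2 ratios of 3.06 and 3.92 in cluster 4 and 4.99 and 2.63 in cluster 9, and Ptgr1, which reduces reactive alkenals, had 4.50 and 2.53.

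Glutathione transferases, which join glutathione to electrophiles, were 2-fold higher for 13 of 14 members in the 12 cells of cluster 4 (median 2.65) and for 10 of 13 in cluster 9 (median 2.77). Gsta3 stood at 528 CPM in NRF2-high, 17.5 CPM in NRF2-low and 14 CPM in control cells of cluster 4, and at 430.3, 8.53 and 15.8 CPM in cluster 9. Gsto1, an omega-class transferase, was at 5419, 567 and 691 CPM in cluster 4 and 10236, 1173 and 1076 CPM in cluster 9. NRF2-low and control cells were close to each other for Gsto1 in both clusters. Gstm4 had a log2 ratio of 4.89 in cluster 4 and 4.92 in cluster 9, the second from 96 UMIs against 1. Gsta2 (4.61 and 2.19) and Gm3776, the last of which was at 990.1 CPM in NRF2-high, 8.53 CPM in NRF2-low and 2.92 CPM in control cells of cluster 4, belong to a family of near-identical copies with Gsta1 of the score, between which counting may divide reads, so their separate values are uncertain. The microsomal Mgst1 and Mgst2 had smaller ratios, 1.94 and 1.65 in cluster 4 and 2.64 and 1.27 in cluster 9.

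Heme and iron genes were 2-fold higher for 5 of 8 members in cluster 4 and 5 of 6 in cluster 9. Blvrb, a biliverdin and flavin reductase, was at 1861, 36.0 and 70.5 CPM in NRF2-high, NRF2-low and control cells of cluster 4 (log2 ratio of high over low 5.69, 95% interval 5.35 to 6.05) and at 2201, 111 and 180.4 CPM in cluster 9. Hmox1, which opens the heme ring, stood at 277, 9.95 and 3.23 CPM in cluster 4 and 248, 55.4 and 20.3 CPM in cluster 9, in the same order. Ftl1, the ferritin light chain, was 8.01-fold higher in the 12 cells than in NRF2-low cells of cluster 4 (6850.4 against 855 CPM) and 23.8-fold higher in cluster 9 (6406 against 269 CPM), while the heavy chain Fth1 was 2.01-fold and 4.85-fold higher. Slc48a1, a heme transporter of endosomes and lysosomes, had log2 ratios of 4.15 and 2.34. Catalase (Cat), which is on none of the target lists, was at 626, 29.4 and 64.3 CPM in cluster 4 and 302, 12.8 and 49.6 CPM in cluster 9. Hemoglobin RNA moved with the division in opposite directions: the red blood cell list summed to 462 CPM in the 12 cells, 4419 CPM in NRF2-low and 727 CPM in control cells of cluster 4, where 1 NRF2-low cell held 86.7% of the NRF2-low Hbb-bs UMIs, and to 3989.9, 537 and 636 CPM in cluster 9, where 1 NRF2-high cell held 89.4%. Without cells that took over 0.5% of their UMIs from hemoglobin or another cell type's list, a setting added after the data were seen, the median of the targets was 1.33 in cluster 4 and 2.17 in cluster 9.

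NADPH supply was uneven. Taldo1 (transaldolase) and Tkt (transketolase), of the non-oxidative pentose phosphate pathway, had log2 ratios of 3.04 (95% interval 2.85 to 3.23) and 2.05 (95% interval 1.88 to 2.21) in the 12 cells of cluster 4 and of 2.11 and 1.88 in cluster 9. G6pdx, the entry enzyme of the oxidative branch, was at 155, 44.1 and 20.9 CPM in NRF2-high, NRF2-low and control cells of cluster 4 and 166, 85.3 and 56.4 CPM in cluster 9. NRF2-low cells were above control cells in cluster 4. In cluster 9 the NRF2-low and control values rest on few UMIs, so their order is not read as a difference. Malic enzyme Me1 did not follow the score in cluster 9, with 294 CPM in NRF2-high, 294 CPM in NRF2-low and 209.7 CPM in control cells (95% interval of the log2 ratio -0.40 to 0.41). In cluster 4 Me1 was at 80.5, 46.4 and 10.3 CPM, so that NRF2-low cells already stood above control cells. Pgd, the next enzyme of the oxidative branch, had log2 ratios of -0.48 (95% interval -1.14 to 0.12) in cluster 4 and -0.05 (95% interval -0.58 to 0.51) in cluster 9. In all, 3 of 9 members of the list were 2-fold higher in cluster 4 and 2 of 6 in cluster 9, beside 4.87% and 13.7% of all genes.

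Thioredoxin, peroxiredoxin and glutathione users were also mixed. Txn1 (thioredoxin) was 2.68-fold higher in the 12 cells than in NRF2-low cells of cluster 4 and 2.57-fold higher in cluster 9, where it stood at 4139.6 CPM against 1612 CPM and 1623 CPM in control cells. Gpx2, an epithelial glutathione peroxidase, had log2 ratios of 2.07 and 1.55, and Gss, the second enzyme of glutathione synthesis, 2.18 and 2.92. Prdx6 had 1.25 and 3.11, the second with 2102 CPM in NRF2-high, 243 CPM in NRF2-low and 857 CPM in control cells. Slc3a2, which pairs with Slc7a11 in the cystine importer, was at 543, 112 and 99.3 CPM in cluster 4, and in cluster 9 its log2 ratio was 0.18 (95% interval -1.07 to 1.63). The thioredoxin list had 2 of 8 members 2-fold higher in cluster 4 and 3 of 7 in cluster 9, and the glutathione use list 3 of 8 and 2 of 7. Of all genes, 4.87% and 13.7% were higher. Of the efflux and feedback list 7 of 9 and 4 of 4 members were 2-fold higher, among them the exporter Abcc4 (3.63 in cluster 4) and Sqstm1, an autophagy receptor that binds KEAP1 (1.45 and 1.23).

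**Figure D2:**
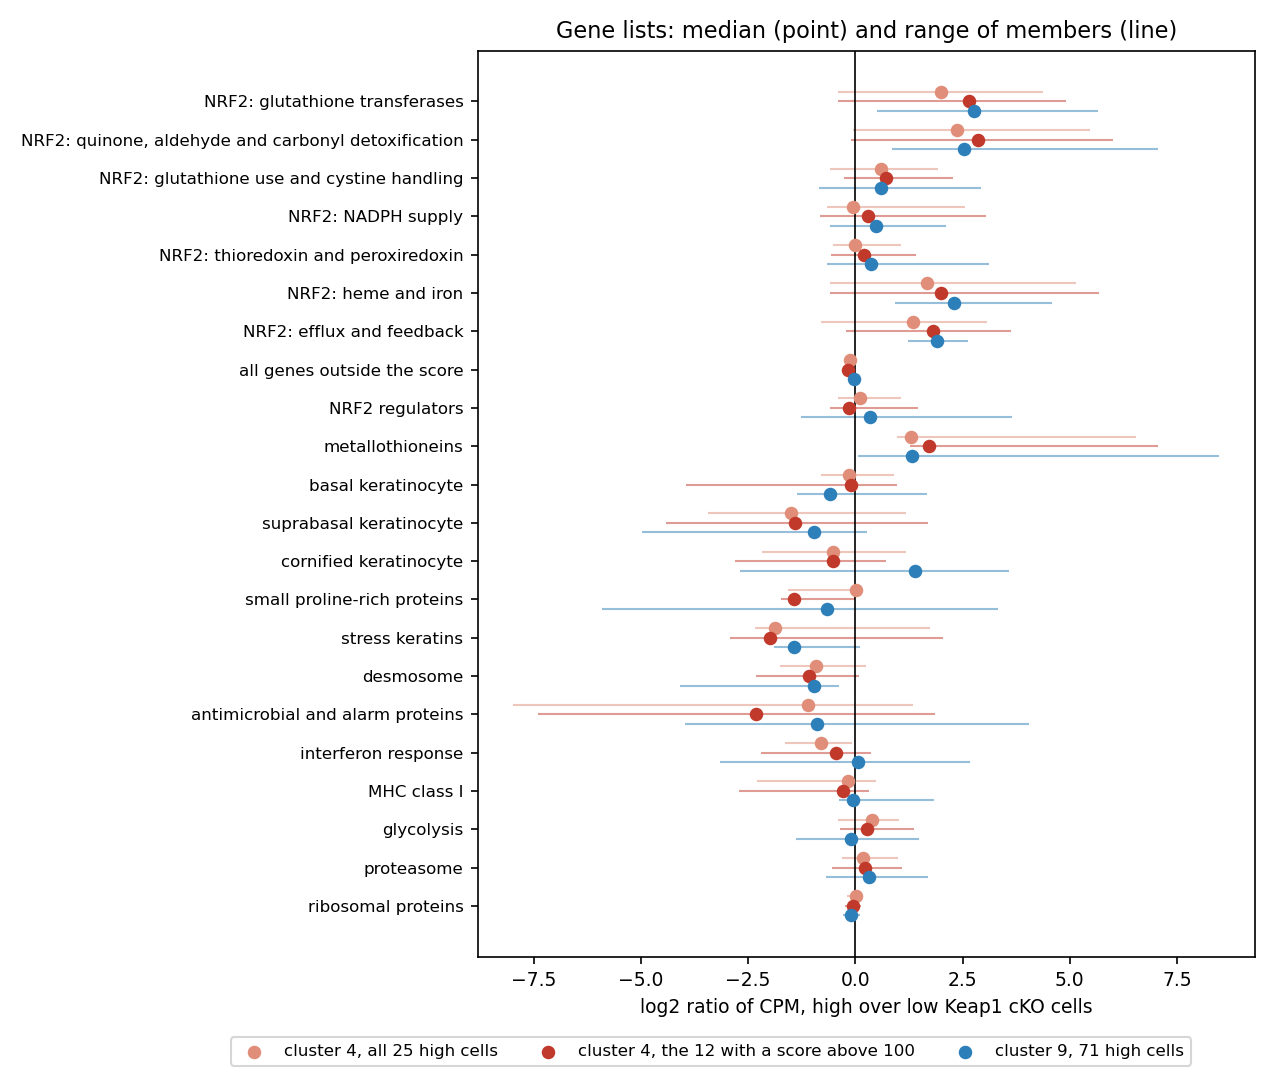
Median (point) and range (line) of the log2 ratio of CPM, NRF2-high over NRF2-low Keap1 cKO cells, over the measured members of each gene list, for all 25 NRF2-high cells of cluster 4, the 12 with a score above 100 and the 71 of cluster 9. Glutathione transferases have medians of 2.65 in the 12 cells of cluster 4 and 2.77 in cluster 9, carbonyl detoxification 2.87 and 2.53, and the median of all genes lies between -0.18 and -0.02.

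RNA of KEAP1 and NRF2 themselves did not divide the cells in the way their targets did. Keap1 was at 50.7 CPM (95% interval 29.5 to 81.2) in the 12 cells, 56.9 CPM (95% interval 47.2 to 68.0) in NRF2-low cells and 76.2 CPM (95% interval 69.6 to 83.2) in control cells of cluster 4, a log2 ratio of high over low of -0.17 (95% interval -0.99 to 0.57). In cluster 9 only 9 Keap1 UMIs were seen in NRF2-high and 1 in NRF2-low cells, against 20 in control cells, and in cluster 13 there were none in the 3 NRF2-high cells and 96 in NRF2-low cells. The sources used here do not give the exons that the floxed allele loses, and a 3′ tag outside the deleted stretch would still be counted, so these levels say nothing about deletion in either group of cells. Nfe2l2 was at 215, 281 and 232 CPM in NRF2-high, NRF2-low and control cells of cluster 4 (log2 ratio of high over low -0.39, 95% interval -0.76 to -0.03) and at 144, 349.8 and 221 CPM in cluster 9 (-1.28, 95% interval -1.71 to -0.84). Its RNA was thus lower in NRF2-high than in NRF2-low cells of both clusters. The small MAF partner Mafg was 2.75-fold higher in the 12 cells and 4.35-fold higher in cluster 9. Bach1, a repressor that competes with NRF2 for its sites, had 24 UMIs in NRF2-high and 2 in NRF2-low cells of cluster 9, and a log2 ratio of 0.28 (95% interval -0.87 to 1.27) in cluster 4.

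Mt3, a metallothionein best known from the brain, had the largest ratio in both clusters among the genes named by the rule that had a UMI in NRF2-high and NRF2-low cells. In the 12 cells of cluster 4 it ran from 159.6 to 9693 CPM with a median of 3416 CPM, and it was seen in all 12, against 24 of 68 NRF2-low and 31 of 313 control cells. Summed, it was at 2985 CPM (95% interval 2803 to 3176) in NRF2-high, 22.3 CPM (95% interval 16.4 to 29.6) in NRF2-low and 27.7 CPM (95% interval 23.8 to 32.1) in control cells of cluster 4, a log2 ratio of 7.07 (95% interval 6.64 to 7.52). In cluster 9 it was seen in all 71 NRF2-high cells, from 682 to 25449.8 CPM (median 8271 CPM), and in 6 of 69 NRF2-low and 3 of 114 control cells. The sums there were 9194, 25.6 and 24.8 CPM, and the lowest NRF2-high cell lay within the range of NRF2-low cells with a Mt3 UMI (highest 1678 CPM). Red blood cells of the Keap1 cKO library, which should lack the gene, held a Mt3 UMI in 7.50% of 120 cells at a median of 10271.5 UMIs. After thinning to 560 UMIs per cell, Mt3 was still seen in 95.8% of NRF2-high, 4.35% of NRF2-low and 0.962% of control cells of cluster 9, and after thinning to 1370 UMIs in 72.7% of 11 usable cells above 100, 4.84% of NRF2-low and 2.88% of control cells of cluster 4.

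The other metallothioneins, which bind zinc and copper, differed less. Mt1 and Mt2 had log2 ratios of 1.27 and 1.74 in the 12 cells of cluster 4 and of 1.33 and 1.31 in cluster 9. Mt2 stood at 4471, 1338 and 936 CPM in NRF2-high, NRF2-low and control cells of cluster 4. Mt4, the form of differentiating squamous epithelium, was 3.26-fold higher in the 12 cells than in NRF2-low cells of cluster 4, and in cluster 9 it was at 13344, 12732 and 22255 CPM, nearly level between NRF2-high and NRF2-low cells and lower in both than in control cells. With all 25 cells of cluster 4 the ratio of Mt1 was 0.97, just under 2-fold.

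**Figure D3:**
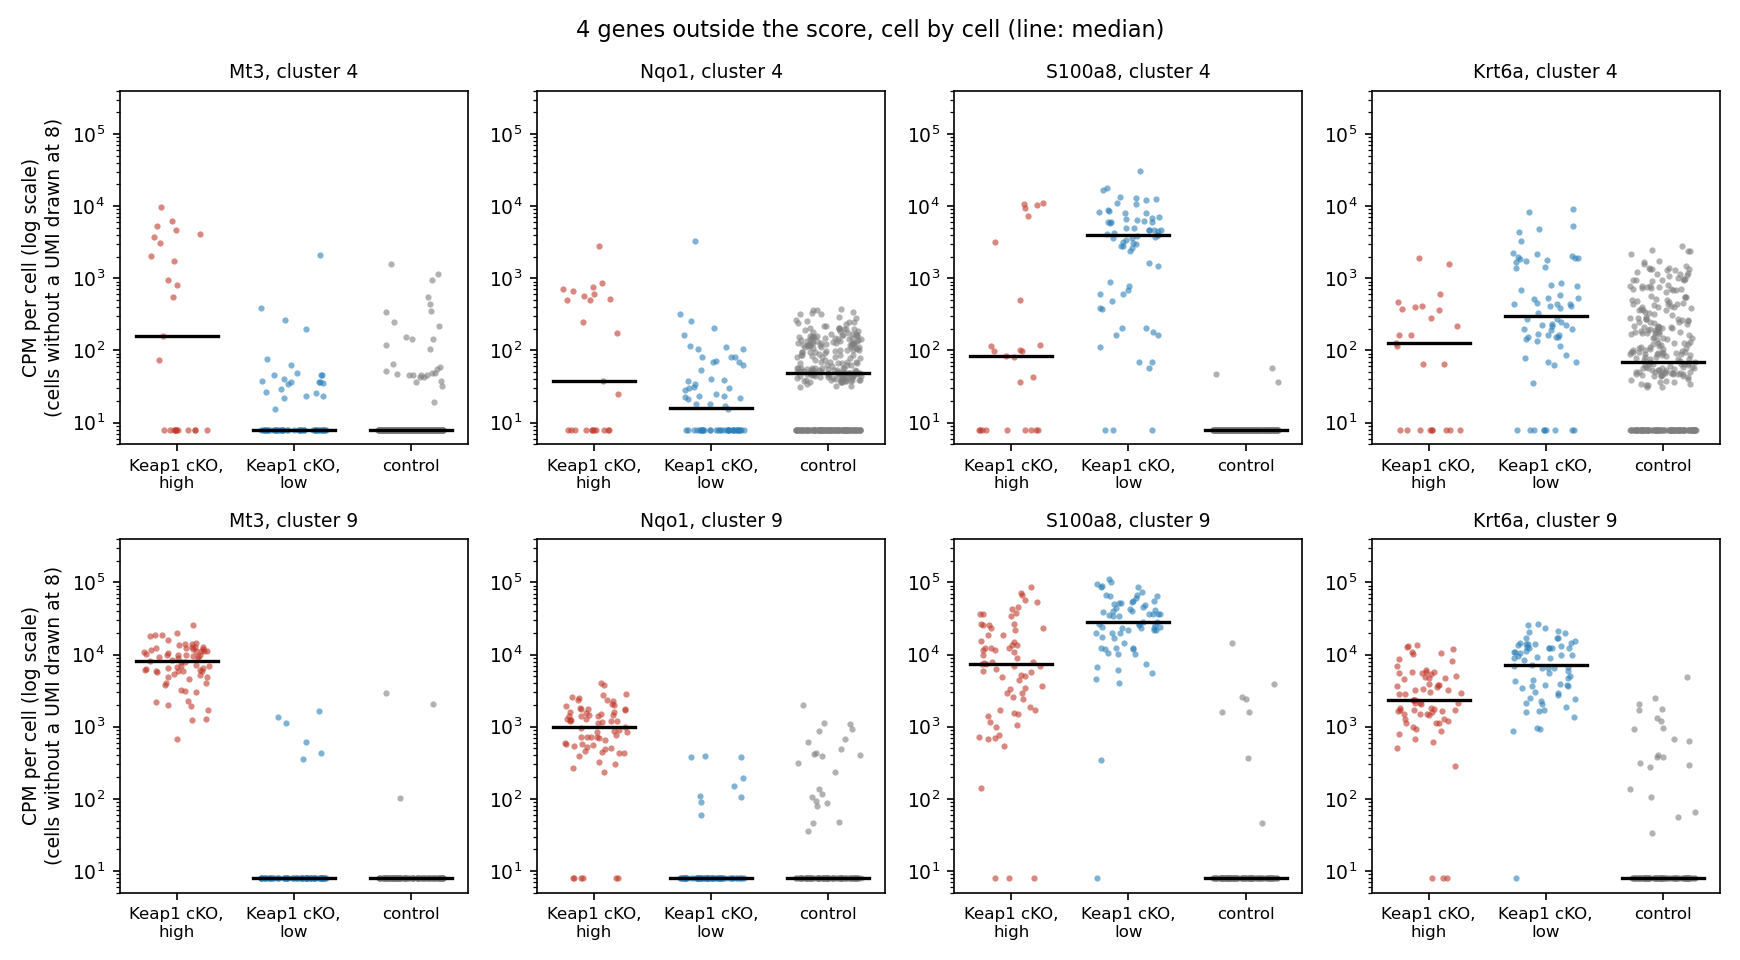
CPM of Mt3, Nqo1, S100a8 and Krt6a in each cell (log axis, cells without a UMI drawn below the others) of NRF2-high, NRF2-low and control cells of cluster 4 (top, all 25 NRF2-high cells) and cluster 9 (bottom); lines are medians. Mt3 is seen in all 71 NRF2-high cells of cluster 9 and in 6 of 69 NRF2-low cells, while S100a8 and Krt6a are each seen in 68 NRF2-high and 68 NRF2-low cells of cluster 9.

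The genes that were 2-fold higher overlapped between the clusters. Among 3370 genes measured in both, 133 were 2-fold higher in all 25 NRF2-high cells of cluster 4 and 404 in those of cluster 9. Of these, 100 were in both lists, 75.2% of the first and 24.8% of the second. Of all genes, 12% were higher in cluster 9 and 3.95% in cluster 4. None of the 133 was 2-fold lower in cluster 9. Of genes 2-fold lower, 177 in cluster 4 and 302 in cluster 9, 44 were shared (24.9% and 14.6%). Of all genes, 8.96% were lower in cluster 9 and 5.25% in cluster 4. In cluster 9, 20 of the 177 were 2-fold higher. Besides the targets above, the 100 shared genes include Pthlh, Areg, Procr, Pir and Htatip2. With the 12 cells of cluster 4 the shared genes were 115 of 181 and 401 that were higher (63.5% and 28.7%). Beside them, 11.9% of all genes were higher in cluster 9 and 5.38% in cluster 4. Of 281 and 301 genes that were lower, 70 were shared (24.9% and 23.3%). Of all genes, 8.95% were lower in cluster 9 and 8.35% in cluster 4. In cluster 9, 27 of the 281 were 2-fold higher and 1 of the 181 was 2-fold lower.

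The promoters of the shared genes were searched for the core of the antioxidant response element, TGACNNNGC, on both strands, within 250 bases before to 50 bases after the RefSeq start. The core lay in 19 of 88 shared genes with a promoter in the table (21.6%), 19.0% of 2725 genes measured in both clusters and 14.0% of all 27025 genes. It was thus about as frequent in the shared genes as in all genes measured. Of 80 NRF2 targets outside the score with a promoter, 15 held it (18.75%), so in this stretch the core does not set listed targets apart from measured genes. The core with its open bases fixed as TGACTCAGC, which also holds the AP-1 site TGACTCA, lay in 4 of the 88 (4.55%), in 24 of the 2725 (0.881%) and in 0.503% of all 27025 genes. The 4 genes are Mt2, Pir, Procr and Htatip2. A match is only a run of letters, and binding was not measured. The 250 bases before the start are shown for these 4 genes, and for Gsta3, a shared glutathione transferase with the core as TGACATTGC, because all 5 genes were 2-fold higher in both clusters. They are from RefSeq on GRCm38.p6, read 5′ to 3′ toward the gene, with the match in capitals, which in Pir reads GCTGAGTCA because the motif lies on the other strand.
Mt2, chr8:94172368-94172617, plus strand: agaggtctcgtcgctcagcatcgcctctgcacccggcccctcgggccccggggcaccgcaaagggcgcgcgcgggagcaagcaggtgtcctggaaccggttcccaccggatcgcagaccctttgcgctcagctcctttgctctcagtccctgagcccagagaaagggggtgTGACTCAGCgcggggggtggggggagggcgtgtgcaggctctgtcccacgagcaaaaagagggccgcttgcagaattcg
Pir, chrX:164269181-164269430, plus strand: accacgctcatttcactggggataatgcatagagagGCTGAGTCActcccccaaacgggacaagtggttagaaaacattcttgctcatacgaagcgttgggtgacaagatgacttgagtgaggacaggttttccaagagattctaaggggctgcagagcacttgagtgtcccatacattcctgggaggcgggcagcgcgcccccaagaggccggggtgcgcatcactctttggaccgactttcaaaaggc
Procr, chr2:155750967-155751216, plus strand: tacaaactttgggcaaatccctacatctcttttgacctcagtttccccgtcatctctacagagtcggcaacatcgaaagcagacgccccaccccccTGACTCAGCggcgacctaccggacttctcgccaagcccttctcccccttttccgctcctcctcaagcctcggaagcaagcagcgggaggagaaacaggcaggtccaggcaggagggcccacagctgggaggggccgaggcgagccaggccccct
Htatip2, chr7:49759262-49759511, plus strand: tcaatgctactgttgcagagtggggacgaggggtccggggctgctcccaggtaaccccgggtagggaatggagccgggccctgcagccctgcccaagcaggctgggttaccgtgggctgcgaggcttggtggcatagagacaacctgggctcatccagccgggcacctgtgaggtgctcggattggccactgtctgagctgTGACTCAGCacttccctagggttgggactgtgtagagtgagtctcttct
Gsta3, chr1:21240335-21240584, plus strand: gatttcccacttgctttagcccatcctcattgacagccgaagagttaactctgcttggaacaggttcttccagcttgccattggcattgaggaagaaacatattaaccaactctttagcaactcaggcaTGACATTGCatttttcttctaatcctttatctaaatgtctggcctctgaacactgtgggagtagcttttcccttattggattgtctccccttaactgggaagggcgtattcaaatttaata

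Of these 5 genes, Procr, the endothelial protein C receptor that also marks some progenitor cells, had the largest ratio in cluster 4 after Gsta3. It was at 253, 37.9 and 57.9 CPM in NRF2-high, NRF2-low and control cells of cluster 4, and in cluster 9 it had 75 UMIs in NRF2-high, 2 in NRF2-low and 2 in control cells. Pir, an iron-binding nuclear protein, was at 233, 43.1 and 73.9 CPM in cluster 4 and 179, 59.7 and 338 CPM in cluster 9. For Pir the control cells of cluster 9 were the highest of the 3 groups. Htatip2, an oxidoreductase-like protein, was 5.01-fold higher in the 12 cells and 2.81-fold higher in cluster 9.

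Pthlh, which encodes parathyroid hormone-related protein, had 81 UMIs in 6 of the 12 cells, 11 in 8 of 68 NRF2-low cells and 17 in 13 of 313 control cells of cluster 4 (242, 5.21 and 2.62 CPM). In cluster 9 it had 156 UMIs in 37 of 71 NRF2-high cells and 1 in NRF2-low cells, and none was seen in control cells (log2 ratio of high over low 5.62, 95% interval 3.13 to 10.94). No UMI of it was seen in 120 red blood cells. The epidermal growth factor list holds ligands and their receptors. Of its 6 members measured in cluster 4, among them the receptors Egfr, Erbb2 and Erbb3, 1 was 2-fold higher and 1 lower in the 12 cells (median -0.54). In cluster 9 the 4 measured were all ligands, and 3 were higher (Areg, Epgn and Ereg). These 3 reached the minimum of 20 UMIs through NRF2-high cells alone, so the filter shaped this count and nothing about the list is read from it. Areg had 50 UMIs in 6 of the 12 cells and 3 in NRF2-low cells of cluster 4 (log2 ratio 6.71, 95% interval 5.08 to 9.04), and in cluster 9 20 in NRF2-high and none in NRF2-low cells, at least 2.11-fold higher at the floor of 3 counts. Epgn had 92 UMIs in NRF2-high, 1 in NRF2-low and 1 in control cells of cluster 9, and Ereg 28, 1 and 2. Hbegf went the other way in cluster 4, with 2 UMIs in the 12 cells and 69 in NRF2-low cells (-2.45, 95% interval -5.53 to -0.55), and Tgfa had log2 ratios of -0.25 (95% interval -2.22 to 1.25) in cluster 4 and 0.21 (95% interval -1.71 to 2.69) in cluster 9. Adm, the vasodilator adrenomedullin, had 42 UMIs in 9 of the 12 cells and 2 in NRF2-low cells of cluster 4, and 34 UMIs in NRF2-high and none in NRF2-low cells of cluster 9. All 81 Pthlh and 50 Areg UMIs of the NRF2-high cells of cluster 4 came from cells above 100.

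Within the interleukin 1 family, Il1f9, an epithelial interleukin 36, was at 227, 40.8 and 2.16 CPM in NRF2-high, NRF2-low and control cells of cluster 4 and 453, 81.0 and 29.3 CPM in cluster 9. Both Keap1 cKO groups lay above control cells, and NRF2-high cells above NRF2-low cells. Il1rn, the antagonist of the interleukin 1 receptor, was lower in NRF2-high than in NRF2-low cells, with 2 against 69 UMIs in cluster 4 and 49.9 against 124 CPM in cluster 9 (31.6 CPM in control cells). In cluster 9 the family had 4 of 7 measured members 2-fold higher and 1 lower, but 104 Il1f5 UMIs came from 7 cells and 54 Il18 UMIs from 8 cells.

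The basal keratin pair was close in level between the 12 cells and NRF2-low cells of cluster 4. Krt14 was at 6194 CPM in NRF2-high, 6716 CPM in NRF2-low and 3595 CPM in control cells of cluster 4, and Krt5 at 3952, 4647 and 4689 CPM. Trp63, the transcription factor of the basal layer, had a log2 ratio of -0.02 (95% interval -0.42 to 0.35). Krt15, in contrast, was at 74.6 CPM (95% interval 48.3 to 110.1) in the 12 cells, 1151 CPM in NRF2-low and 7794 CPM in control cells, and at 1982 CPM in the intermediate cells, so that over all 25 cells the log2 ratio was -0.70. In cluster 9 Krt14 was at 3444, 5174 and 133 CPM and Krt5 at 368, 879 and 347 CPM in NRF2-high, NRF2-low and control cells. Krt14 was thus far above control cells in both Keap1 cKO groups of cluster 9, and more so in NRF2-low cells.

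Keratins of the suprabasal layers were lower in NRF2-high cells. In the 12 cells of cluster 4, 7 of 12 suprabasal genes were 2-fold lower and 1 higher than in NRF2-low cells (median -1.40), and in cluster 9 5 of 11 were lower and none higher (median -0.96). In the 13 intermediate cells of cluster 4, Krt4, Krt13, Krt6a and Dsc2 were 2-fold lower than in NRF2-low cells as well. So was Mt4, which was higher in the 12 cells. Low Krt4 and Krt13 in cluster 4 were thus not particular to the cells above 100. Krt4, which with Krt13 builds the filaments of the normal suprabasal esophagus, was at 35.8 CPM (95% interval 18.5 to 62.5) in the 12 cells, 768 CPM in NRF2-low and 653 CPM in control cells of cluster 4. In cluster 9 it was at 318 CPM in NRF2-high, 10002 CPM in NRF2-low and 28451 CPM in control cells, 31.4-fold lower in NRF2-high than in NRF2-low cells. Cell by cell in cluster 9 its median was 43.1 CPM in NRF2-high and 7137 CPM in NRF2-low cells. Krt13 was 16.9-fold lower in the 12 cells than in NRF2-low cells (164 and 2764 CPM, 6076 CPM in control cells), but in cluster 9 the groups were closer, at 8627, 10766 and 40523 CPM. The partners Krt4 and Krt13 thus had different ratios in cluster 9, -4.97 (95% interval -5.17 to -4.78) and -0.32 (95% interval -0.39 to -0.25). Krtdap, a keratinocyte differentiation peptide, had log2 ratios of -2.13 in cluster 4 and -0.96 in cluster 9, and Ly6d, a surface protein of squamous cells, -3.33 and -0.72.

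Stress keratins, which wounded or hyperproliferative epithelium makes in place of the usual pairs, were above control cells in NRF2-low cells and lower again in NRF2-high cells. In the 13 intermediate cells of cluster 4, Krt6a, Krt6b and Krt16 were 2-fold lower than in NRF2-low cells as well, beside 14.1% of all genes. In cluster 4 the lower level was thus not particular to the 12 cells. Krt6a was at 280.3 CPM in the 12 cells, 1146 CPM in NRF2-low and 249 CPM in control cells of cluster 4, with the 12 cells near the control level. In cluster 9 it was at 2775 CPM (95% interval 2656 to 2897), 10416 CPM (95% interval 10007 to 10837) and 106 CPM (95% interval 77.9 to 141), with cell medians of 2347 and 7241 CPM in NRF2-high and NRF2-low cells and 0 in control cells. Krt6b was 7.55-fold lower in NRF2-high than in NRF2-low cells of cluster 4 and 3.69-fold lower in cluster 9, where it stood at 3169.8, 11695 and 67.6 CPM. Krt16, their usual partner, had log2 ratios of -1.97 in cluster 4, where 1 NRF2-low cell held 58.1% of the NRF2-low UMIs and thinning gave 0.21, and -0.99 (95% interval -1.07 to -0.91) in cluster 9. It was at 4024 CPM in NRF2-high and 7993 CPM in NRF2-low cells of cluster 9 and was not seen in control cells. Krt17 differed from the rest: it was at 734 CPM in the 12 cells, 177 CPM in NRF2-low and 31.6 CPM in control cells of cluster 4 (2.05, 95% interval 1.81 to 2.29), and level between NRF2-high and NRF2-low cells of cluster 9 (1178 and 1096 CPM, no UMI in control cells).

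**Figure D4:**
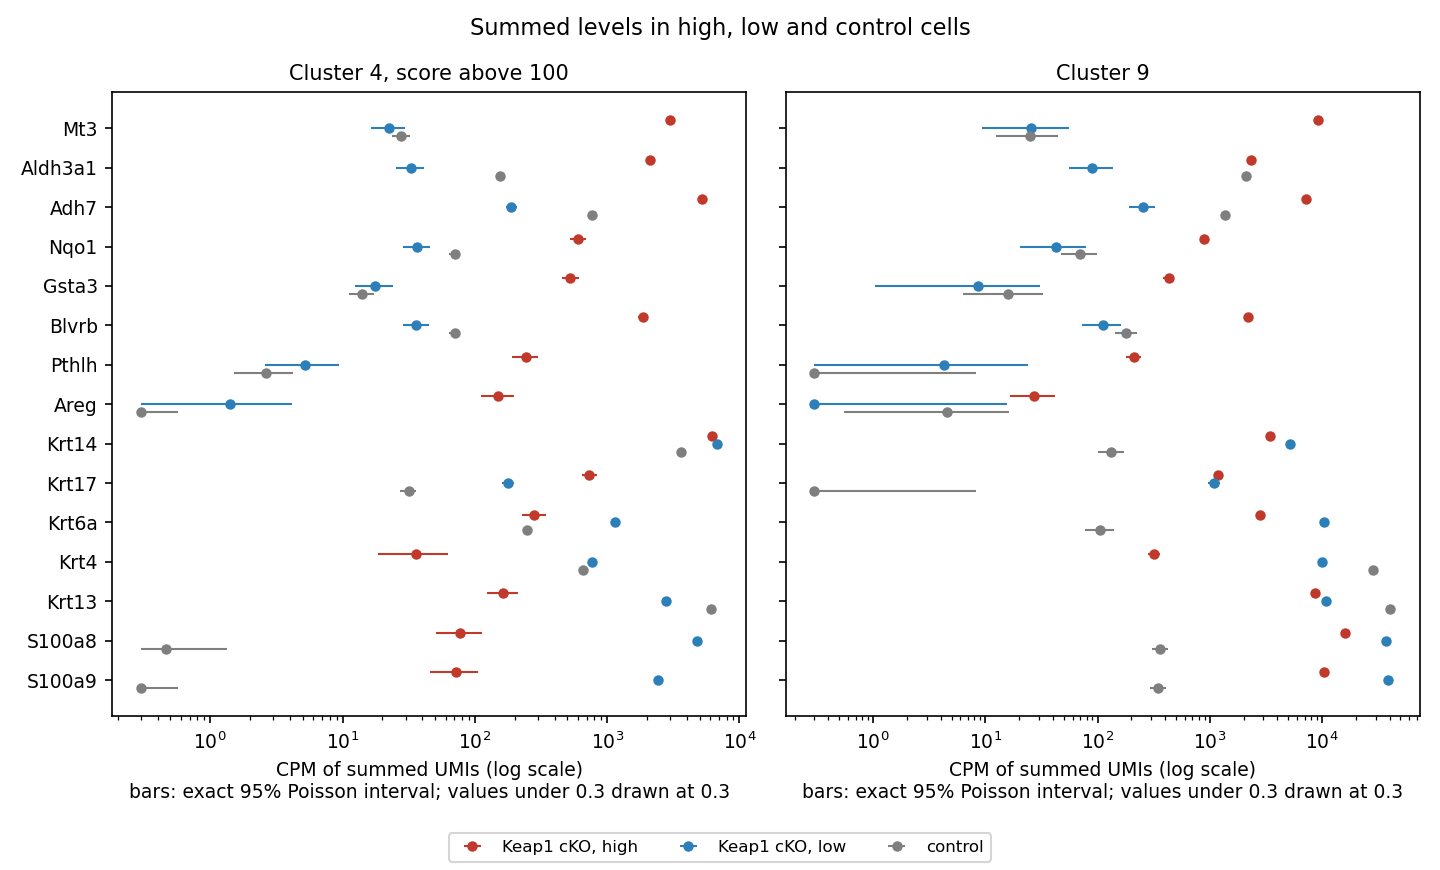
Summed CPM with exact 95% Poisson intervals (log axes) of 15 genes in NRF2-high, NRF2-low and control cells of cluster 4 (left, the 12 NRF2-high cells above 100) and cluster 9 (right). NRF2-high points lie right of NRF2-low points for Mt3 to Areg and left of them for Krt6a, Krt4, Krt13, S100a8 and S100a9, and Krt14 lies close together in the Keap1 cKO groups of cluster 4.

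Desmosome genes, which hold keratinocytes together, were 2-fold lower for 6 of 10 members in the 12 cells of cluster 4 and 3 of 7 in cluster 9, and none was 2-fold higher. Of all genes, 15.7% and 9.27% were lower there. Dsp (desmoplakin) was at 394, 851 and 582 CPM in NRF2-high, NRF2-low and control cells of cluster 4 and 293, 678 and 789 CPM in cluster 9. The cadherin Dsc2 had 5 UMIs in the 12 cells and 156 in NRF2-low cells (log2 ratio -2.31, 95% interval -3.95 to -1.06) and 5 against 27 in cluster 9 (-4.09, 95% interval -5.83 to -2.70). Dsg3 and the plaque protein Pkp1 had log2 ratios of -1.57 and -1.41 in cluster 4, and the intermediate cells had -1.13 and -0.98. Over the list, the intermediate cells had 2 of 10 members 2-fold lower (Dsc2 and Dsg3) and 1 higher (Dsg2), near the shares of all genes (14.1% lower and 5.05% higher).

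Genes of the cornified layer were scarce in cluster 4 and mixed in cluster 9, where 9 of 16 measured members were 2-fold higher and 1 lower. Most of the higher ones are late cornified envelope genes of the Lce3 family, and they came from few cells: Lce3c had 1473 UMIs in 9 of 71 NRF2-high cells, 65 in 5 of 69 NRF2-low cells and 198 in 2 of 114 control cells. Loricrin (Lor) was at 877, 563 and 1324 CPM in NRF2-high, NRF2-low and control cells of cluster 9, from 14, 14 and 29 cells. Crct1 was spread over more cells (51 of 71 NRF2-high and 37 of 69 NRF2-low) and stood at 4099, 1770.1 and 2045 CPM. Small proline-rich proteins, which are cross-linked into the envelope, differed in sign within cluster 9, where 5 of 12 were 2-fold lower (Sprr1b, Sprr2a1, Sprr2a3, Sprr2k and Sprr3) and 2 higher (Sprr2e and Sprr2f). Sprr2a3 was at 116, 929.8 and 388 CPM and Sprr3 at 201, 1305 and 431 CPM, lower in NRF2-high than in NRF2-low cells. Sprr2h was at 664 CPM in NRF2-high and 371 CPM in NRF2-low cells, under 2-fold apart, with no UMI in control cells. The Sprr2 copies are near-identical, so the division of reads among them is uncertain.

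Among the 15 genes that the rule named as lower in cluster 9, the kallikreins Klk10, Klk13 and Klk14 had log2 ratios of -3.86, -3.27 and -2.63, and Serpinb3a, a serpin of squamous epithelium, -4.46 (51.3 CPM in NRF2-high, 1130.3 CPM in NRF2-low and 728 CPM in control cells). The gene furthest down in cluster 9 by the naming rule was 2610528A11Rik, at 5.40, 264 and 453 CPM, and in the 12 cells of cluster 4 it was at 5.96, 154 and 85.0 CPM. Lypd3, a surface protein of stratified epithelium, had log2 ratios of -1.85 and -2.53, and Endou, Upp1 and Chd9 had -2.90, -2.77 and -3.10 in cluster 9. In cluster 4, Spink5, an inhibitor of kallikreins, was higher in NRF2-high cells, at 1625 CPM in the 12 cells (8 of 12 with a UMI), 74.4 CPM in NRF2-low and 4.46 CPM in control cells, and in cluster 9 its log2 ratio was -0.27 (95% interval -0.72 to 0.20).

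Calprotectin, the S100a8 and S100a9 pair that inflamed epithelium and neutrophils make, was far above control cells in NRF2-low cells and less so in NRF2-high cells. In the 12 cells of cluster 4, S100a8 ran from 0 to 497 CPM, against a median of 3916 CPM and a highest value of 30864 CPM in NRF2-low cells. Its sums were 77.5 CPM (95% interval 50.7 to 114) in NRF2-high, 4792 CPM (95% interval 4699 to 4886) in NRF2-low and 0.462 CPM in control cells (log2 ratio of high over low -5.95, 95% interval -6.56 to -5.40). The intermediate cells had 4805 CPM, as much as NRF2-low cells, so that over all 25 cells the ratio was -1.54. In cluster 9 the cells overlapped, with a median of 7483 CPM in NRF2-high and 28083 CPM in NRF2-low cells and sums of 16139, 36860.3 and 361 CPM. S100a9 had log2 ratios of -5.07 (95% interval -5.71 to -4.49) in cluster 4 and -1.90 (95% interval -1.94 to -1.85) in cluster 9, where it was at 10401, 38767 and 347 CPM. Over all 25 cells of cluster 4 the S100a9 ratio was -1.81. After thinning to 1370 UMIs, a S100a8 UMI was seen in 27.3% of the 11 usable cells above 100 and 77.4% of NRF2-low cells of cluster 4, beside 12.5% of red blood cells, which held one in 60.8% before thinning. The share in the 12 cells (95% interval 6.02 to 61.0%) is therefore not set apart from free RNA. Of 9 neutrophil markers only S100a8, S100a9 and Il1r2 reached 20 UMIs in cluster 4 and only the first 2 in cluster 9, while Csf3r, Cxcr2, Ly6g, Mmp8, Mmp9 and Retnlg did not, and the part of neutrophil RNA was not tested.

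The antimicrobial and alarm list, which holds S100a8 and S100a9, was mixed beyond that pair. In the 12 cells of cluster 4, 5 of 9 members were 2-fold lower (S100a8, S100a9, Lcn2, and Saa3 and Reg3g, most of whose NRF2-low UMIs came from 1 cell each) and 1 was higher (Slpi). In cluster 9, 6 of 12 were lower (S100a8, S100a9, Lcn2, Pglyrp1, Defb3 and Defb4) and 3 higher (Slpi, Defb14 and Il1f5). Lcn2, which binds bacterial siderophores, had 2 UMIs in the 12 cells and 368 in NRF2-low cells (-4.87, 95% interval -7.92 to -3.01), and 10.8 against 158 CPM in cluster 9. Chil4, a chitinase-like protein, had 2 UMIs against 1740 in cluster 4 and 14.8 CPM in NRF2-high, 495 CPM in NRF2-low and 1087 CPM in control cells of cluster 9. Pglyrp1, which binds peptidoglycan, was at 25.6 against 405 CPM in cluster 9. Slpi, a secreted inhibitor of neutrophil elastase, was at 602, 167 and 3.39 CPM in cluster 4 and 10370, 3024 and 3935 CPM in cluster 9, higher in NRF2-high than in NRF2-low cells of both. Ifitm3, an interferon-inducible membrane protein, had log2 ratios of -2.21 and -3.15.

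Some genes that the rule named in cluster 4 rested on 1 cell. A single NRF2-low cell of 42871 UMIs and a score of 10.5 held 98.8% of the NRF2-low UMIs of Saa3, 94.3% of Timp1, 73.5% of Col1a2 and 48.2% of Dcn. Another held 77.2% of Reg3g, whose log2 ratio of -1.82 turned to 0.30 without it. These ratios are not read as differences between NRF2-high and NRF2-low cells. The fibroblast list, which holds Col1a2 and Dcn, summed to 325 CPM in the 12 cells, 740.3 CPM in NRF2-low and 673 CPM in control cells, with all 10 markers measured and 6 of them 2-fold lower in NRF2-high cells. In cluster 9, Rnf227 took 75.6% of its 135 NRF2-high UMIs from 1 cell. Trdc, a constant segment of the T cell receptor, had 127 UMIs in 33 of 71 NRF2-high cells, 2 in NRF2-low and 1 in control cells of cluster 9. It was seen in 9.17% of red blood cells, and it was the only one of 12 T cell markers with 20 UMIs there, in a list that summed to 248 CPM in NRF2-high, 102 CPM in NRF2-low and 13.5 CPM in control cells. The part of T cell RNA was not tested. Doublets were not called here, and the highest UMI counts lay in NRF2-low cells of cluster 4 (100520) and in NRF2-high cells of cluster 9 (60936).

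Of the housekeeping lists, ribosomal proteins were level, and proteasome subunits were somewhat higher in NRF2-high cells. Ribosomal proteins had medians of -0.06 in cluster 4 and -0.10 in cluster 9 with none of 18 past 2-fold, and proteasome subunits had 1 and 3 of 32 higher and none lower. The proteasome list summed to 7372, 6087 and 5170 CPM in all 25 NRF2-high, NRF2-low and control cells of cluster 4. In cluster 9 the sums were 9596, 7123 and 6645 CPM, with a median log2 ratio of 0.31. Immediate early genes, which respond within minutes to stimuli and to tissue dissociation, went in different directions: 11 of 16 were 2-fold lower in the 12 cells of cluster 4 (over all 25 cells, 5 lower and 1 higher, Ier3), with Fos at 38.8, 235 and 274 CPM, and 4 of 12 were higher in cluster 9, with Jun at 119, 29.9 and 31.6 CPM. The log2 ratio of Fos turned to 0.32 when Gsta1 and Gstm1 were left out of the score, and that of Sat1, a polyamine acetyltransferase, from -1.67 over all 25 cells to 0.10. Ndufa4l2, a hypoxia-responsive mitochondrial protein, had 12.1 CPM in NRF2-high, 158 CPM in NRF2-low and 782 CPM in control cells of cluster 9, and in cluster 4 no UMI in the 12 cells and 7 in NRF2-low cells, against 2182 in control cells. Both Keap1 cKO groups thus lay below control cells. Replication and mitosis genes were lower for 6 of 17 members in the 12 cells of cluster 4 and for none in all 25.

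Tubb3, a tubulin of neurons, and Map1b, a microtubule-binding protein, were also named by the rule. Tubb3 had 202 UMIs in 43 of 71 NRF2-high cells, none in 69 NRF2-low cells and 2 in control cells of cluster 9, at least 21.3-fold higher than in NRF2-low cells. In cluster 4 it had 7 UMIs in the 12 cells and none in NRF2-low or control cells. Map1b was at 167, 6.64 and 6.47 CPM in cluster 4, and Slc1a4, a neutral amino acid transporter, at 262, 13.3 and 38.3 CPM. All 56 Map1b UMIs in NRF2-high cells of cluster 4 came from cells above 100.

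The 3 NRF2-high cells of cluster 13 held 1154, 2195 and 18478 UMIs, against a median of 44422 in NRF2-low and 28122 in control cells of the cluster. Mt3 was at 9163 CPM (95% interval 7937 to 10525), 164 CPM (95% interval 148 to 181) and 75.9 CPM (95% interval 67.8 to 84.7) in NRF2-high, NRF2-low and control cells, Adh7 at 9438, 599.5 and 1901 CPM, and Blvrb at 2428, 55.4 and 123 CPM. S100a8 had 3 UMIs in the 3 cells and stood at 10236 CPM in NRF2-low and 0.952 CPM in control cells. Slpi was at 7101, 142 and 6.66 CPM. Mitochondrial genes made up 0.293% of the UMIs in the 3 cells and 3.37% in NRF2-low cells of cluster 13, while in cluster 9 they made up 0.252% in NRF2-high and 0.309% in NRF2-low cells. The largest of the 3 cells held 18478 of their 21827 UMIs, so the sums rest mostly on it.

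The 71 NRF2-high cells of cluster 9 summed to 741368 UMIs and the 69 NRF2-low cells to 234453, so a gene without a UMI in NRF2-low cells is not shown to be absent there. In cluster 4 the 12 cells summed to 335308 UMIs and the 68 NRF2-low cells to 2109992.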

How the data were processed

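RNA of single cells of 1 Keap1 cKO and 1 control esophagus library was measured by droplet sequencing. The submitters' processing notes name the build mm10, Seurat 4.0.2, R 4.1.1 and Cell Ranger 6.0.1. The deposited table holds natural log values, ln(1 + 10000 × a gene's share of the cell's UMIs), which the authors made, beside their clusters and cell type names. All values came back as whole UMIs within 0.01, and these counts were recovered here, summed over cells and given per 1000000 UMIs (CPM). Intervals are exact at 95% (Poisson for CPM, conditional binomial for ratios, Clopper-Pearson for shares) and cover counting error only. Cells of 1 library are not replicates, so no test was made. A gene was measured with at least 20 UMIs over NRF2-high and NRF2-low cells and called past 2-fold. Genes were named as the 15 furthest apart per direction and cluster with at least 50 UMIs, 100 CPM and 5 cells, with the score genes and fixed genes of the pathway and keratinocytes, and others come from the lists or were chosen after their values were seen. Members and lists were chosen with earlier results of these data known. The calculation was tested on counts simulated with counting error only. That does not cover differences between cells, such as genes whose UMIs came mostly from 1 cell. Python 3.11.15, NumPy 2.4.6, SciPy 1.17.1, pandas 2.3.3 and Matplotlib 3.10.9 were used.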

Additional observations from a re-analysis of the deposited data

How the results depend on the processing

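No paired analysis was possible because each genotype has 1 library. Directions held in most settings: of 976 values of single genes under alternatives, 806 stayed within the counting interval, 165 moved and 5 reversed, and 29 of 33 named genes past 2-fold in cluster 4 and 37 of 38 in cluster 9 kept their direction at every setting. The share of NRF2-high cells in cluster 4 was 46.2% with the score without Gsta1 and Gstm1 and 15.7% after thinning, and in cluster 9 it stayed between 50.4 and 54.7%. The median log2 ratio of the targets outside the score in cluster 4 was 0.69 without Gsta1 and Gstm1, 1.78 after thinning and 1.81 for scores above 100 (added after the data were seen), and in cluster 9 it was 1.16 with no minimum of UMIs. Counts of genes past 2-fold depended on the settings. In cluster 4 the number higher was 62 after thinning, 834 as a mean over cells, 135 with at least 50 UMIs and 1236 with no minimum, and the number lower was 484 without Gsta1 and Gstm1, 108 after thinning, 2151 as a mean over cells and 389 with at least 50 UMIs. In cluster 9 the number higher was 63 after thinning, 217 with at least 50 UMIs and 889 with no minimum, and the number lower was 56, 106 and 1970 in the same settings and 571 as a mean over cells. The reversed ratios were Fos (0.32) and Sat1 (0.10) in cluster 4 without Gsta1 and Gstm1, Krt16 in cluster 4 (0.21) and Rnf227 in cluster 9 (-0.041) after thinning, and Reg3g in cluster 4 (0.30) without the cell with most of its UMIs. Thinning and stricter minimums leave fewer UMIs or genes, and for the other settings the cause was not tested.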
